A study of Mus musculus with 148 samples.

Results

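Xist RNA coats the chromosome it is made from and silences most of its genes, and this series measured that silencing in mouse embryonic stem cells (mESCs) carrying an inducible Xist. The experiment described here is the iXist-ChrX WT line after 6 days in differentiating conditions. Its members were found by library name, as 3 libraries grown with doxycycline (Dox) and 3 grown without it (NoDox), 6 of the 148 samples of the series. They stand in a table of 24 libraries that covers 258 genes of the X chromosome.

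The line is a clone of XX mESCs from a cross of the mouse strains 129S and Cast, so most X-linked transcripts can be assigned to their chromosome by single-nucleotide differences. A Dox-responsive promoter replaces that of the endogenous Xist gene on the 129S chromosome, and a Dox-dependent transactivator sits in the TIGRE locus. Dox induces Xist from the 129S chromosome, counted as the inactive X (Xi), and the Cast chromosome is counted as the active X (Xa). Cells with and without Xist RNA are not told apart in these libraries. NoDox and Dox cells share this genotype, the feeder layer of inactivated mouse fibroblasts and the differentiation by withdrawal of LIF. The labels give 144 h of Dox for the Dox libraries and 0 h for the NoDox libraries, while the growth protocol names 24 h for every sample of the series. The lines XistDelA and XistDelPID, used below for comparison, lack the A-repeat of Xist and its Polycomb-recruiting domain, with 6 differentiating libraries each. A WT pair grown undifferentiated for 6 days gave 1 NoDox and 1 Dox library. Among the 24 libraries the labels name 1 line of each genotype. A recombination between the strains' X chromosomes while the line was made limits informative genes to the part between the centromeric end and Xist. C7H8, a reciprocal clone also labelled WT, has the inducible Xist on the Cast chromosome. Its NoDox libraries, used below for single genes, carry no label of 6 days or of differentiation.

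X inactivation balances the dose of X-linked genes between XX and XY cells. Xist RNA spreads from its own locus, recruits the repressor SPEN through the A-repeat and brings Polycomb complexes to the chromosome through another repeat. Most genes become silent during early differentiation, some are silenced slowly, and a small set, the escape genes, stays active from the inactive X in mature cells.

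RNA attached to chromatin was sequenced, which is rich in newly made, unspliced transcripts. The deposited value is the allelic ratio Xi/(Xi + Xa), the fraction of a gene's allele-assigned reads that came from the 129S chromosome. A ratio near 0.5 means equal output from both chromosomes, and a ratio of 0 means that no assigned read came from the Xi. Read numbers were not used here, so the depth of each library and gene is unknown beyond the authors' minimum of 10 reads, and no interval is given for a single ratio. RNA from whole cultures was measured, so fewer cells with an active Xi gene and less RNA per cell cannot be told apart. The study calls its replicates biological, but the labels do not say that they came from separate cultures, so p-values measure the spread between samples.

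The Xist ratio matched the label of the line. It was 0.994, 0.986 and 0.983 in the NoDox libraries and 0.999 in each of the Dox libraries, so that nearly all Xist RNA came from the 129S chromosome in all 6. Of the X-linked markers, Nr0b1, a nuclear receptor of pluripotent cells, was listed with 26.6 RPKM (expression per gene length and library size, a deposited value whose library is not named). The pluripotency markers Rhox5 and Dusp9 were not listed. Of the fibroblast markers, Timp1, Fhl1 and Srpx were listed with 21.2, 23.8 and 0.0466 RPKM, and Bgn was not. Of the neuronal markers, L1cam and Gria3 were listed with 1.85 and 3.75 RPKM, and Syp and Nlgn3 were not. A gene without strain differences or with too few reads is not listed, and the RPKM gives no level per group, so the markers do not tell how far the cells had differentiated.

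After 6 days with Dox most X-linked genes gave little RNA from the Xi. The median ratio over the 258 genes was 0.519, 0.511 and 0.509 in the NoDox libraries and 0.111, 0.0880 and 0.0784 in the Dox libraries. The means of these medians were 0.513 ± 0.00536 (SD, n = 3) and 0.0925 ± 0.0168 (SD, n = 3). Every Dox library lay far below every NoDox library. The group means differed by -0.421 (exact permutation p = 0.10, which 3 libraries per group cannot go below). With limma, 252 of the 258 genes (97.7%) passed as silenced (adjusted p below 0.05). The number raised was 0 (0%), and it was also 0 by unadjusted p below 0.05. In 251 genes (97.3%) every Dox ratio was below every NoDox ratio. The genes without this separation were Cybb, Slc25a5, C330007P06Rik, Frmd7, Pja1, Tsix and Xist.

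Dox replicate 1 stood above the other Dox libraries. Among the 250 genes with a mean NoDox ratio from 0.2 to 0.8, 151 had their highest Dox ratio in replicate 1, 61 in replicate 2 and 34 in replicate 3. The difference between Dox and NoDox medians was -0.408 in replicate 1, -0.423 in replicate 2 and -0.431 in replicate 3. The table names the replicate 1 libraries in the manner of the undifferentiated pair and replicates 2 and 3 in another, and the labels give no batch. Without replicate 1 the difference of medians was -0.427 and limma counted 253 silenced genes. With the replicate number as a block, the difference was -0.421 (exact sign permutation p = 0.25, the smallest for 3 pairs) and limma again counted 252 genes.

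The depth of silencing differed widely among genes. A gene was called fully silenced when its ratio was below 0.05 in every Dox library, and incompletely silenced when it was above 0.2 in every Dox library. Both calls were made among the 250 genes with a mean NoDox ratio from 0.2 to 0.8. They gave 36 fully silenced genes (14.4%) and 8 incompletely silenced genes (3.2%), with 206 genes between them. The fully silenced genes had a median Dox ratio of 0.0286 and the incompletely silenced genes 0.302, against 0.0938 over all 250. Their NoDox ratios differed too, with medians of 0.460 and 0.566, against 0.513 over all 250. As residual odds, the Dox ratio over its complement as a percentage of the same in NoDox, the medians were 2.77% and 29.8%, against 9.41% over all 250.

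**Figure D1:**
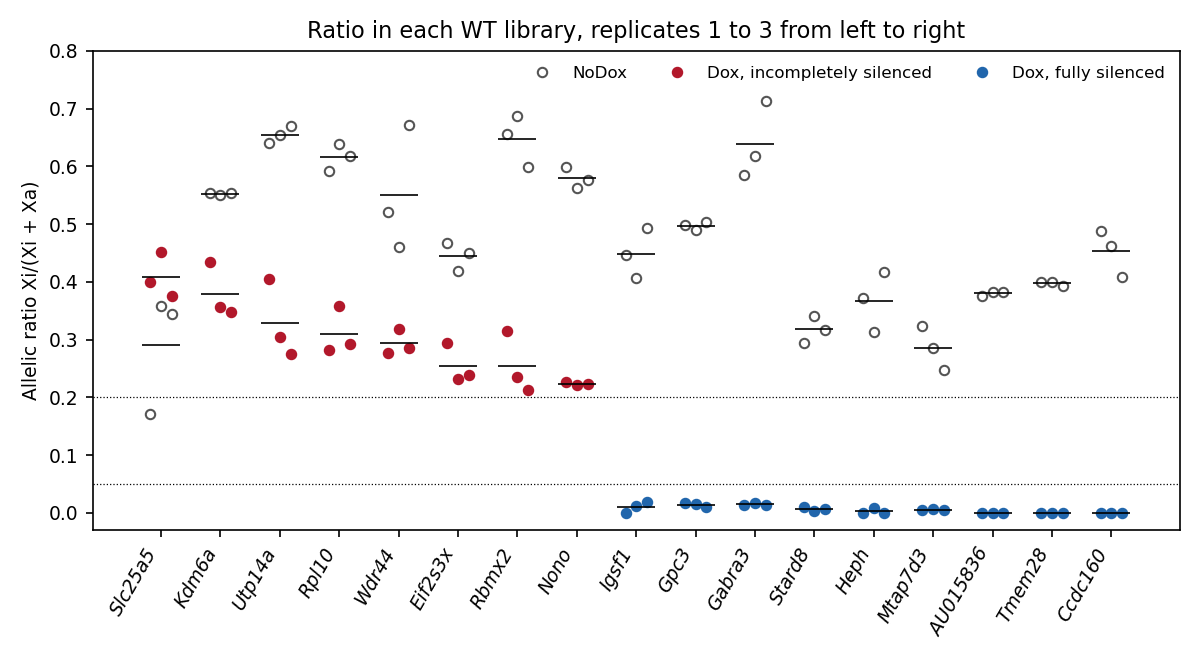
Allelic ratio (vertical axis, a fraction) in each WT library of the 8 incompletely silenced genes and 9 of the 10 fully silenced genes with the lowest Dox ratios (horizontal axis). Dox points (filled) lie below the NoDox points (open) in every gene shown except Slc25a5, whose Dox ratios of 0.375 to 0.451 lie above its NoDox ratios of 0.172 to 0.358.

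The incompletely silenced genes included 3 known escape genes. Kdm6a, a demethylase that removes the Polycomb mark from histones and a classical escape gene, had NoDox ratios of 0.554, 0.550 and 0.554 and Dox ratios of 0.435, 0.356 and 0.347. Its z, the mean Dox minus the mean NoDox ratio, was -0.173 (limma adjusted p = 2.2e-07), and all 3 Dox libraries were below all NoDox libraries. Kdm6a was therefore silenced, but kept 50.0% of its NoDox odds. Utp14a, which processes ribosomal RNA in the nucleolus, had Dox ratios of 0.405, 0.304 and 0.275 from NoDox ratios of 0.640, 0.654 and 0.669. Eif2s3x, the subunit of the translation initiation factor that binds the initiator tRNA, had Dox ratios of 0.293, 0.232 and 0.238 from NoDox ratios of 0.468, 0.419 and 0.449. In both genes replicate 1 was the highest Dox library, and the groups did not overlap.

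The other incompletely silenced genes serve RNA handling, translation, membrane traffic and mitochondria. Nono, an RNA-binding protein of nuclear paraspeckles, had Dox ratios of 0.226, 0.221 and 0.224 from NoDox ratios of 0.598, 0.563 and 0.576. Its Dox libraries were nearly equal, with an SD of 0.00270, against a median SD of 0.0249 over the 250 genes. Rbmx2, an RNA-binding protein of the splicing machinery, had Dox ratios of 0.315, 0.235 and 0.213 from NoDox ratios of 0.655, 0.687 and 0.599. Its z of -0.393 was the largest fall among the incompletely silenced genes, and it ended above 0.2 from one of the highest NoDox ratios. Rpl10, a protein of the large ribosomal subunit, had Dox ratios of 0.282, 0.358 and 0.291 from NoDox ratios of 0.591, 0.639 and 0.618. Wdr44, a Rab-binding protein of recycling endosomes, had Dox ratios of 0.277, 0.318 and 0.286, while its NoDox ratios of 0.520, 0.460 and 0.671 were more scattered. For both genes replicate 2 was the highest Dox library.

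Slc25a5, an ADP/ATP carrier of the inner mitochondrial membrane, was the only incompletely silenced gene that limma did not call silenced. Its NoDox ratios were 0.172, 0.358 and 0.344, and its Dox ratios were 0.4, 0.451 and 0.375. The z of 0.117 had a standard error of 0.143 (limma adjusted p = 0.43), although all 3 Dox ratios were above all NoDox ratios. In the reciprocal line C7H8, where the counted fraction is that of the Cast allele, its NoDox ratios were 0.526 and 0.531. The C7H8 libraries are not labelled as differentiating, so line, allele and culture all differ. Slc25a5 and Rpl10 have processed copies elsewhere in the genome, and the part of misassigned reads in their ratios was not tested.

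The lowest Dox ratios of the fully silenced genes were at or near 0. Ccdc160, a coiled-coil protein, had NoDox ratios of 0.488, 0.462 and 0.409 and a Dox ratio of 0 in all 3 libraries. Tmem28, a membrane protein of the nervous system, had NoDox ratios of 0.4, 0.4 and 0.392 and was also at 0 in all 3 Dox libraries. AU015836, with NoDox ratios of 0.375, 0.382 and 0.383, was at 0 in each Dox library as well. These were the 3 genes of the 250 without any assigned Xi read in Dox, and their RPKM values of 2.31, 4.92 and 19.4 covered a wide range. Mtap7d3, a microtubule-associated protein, had Dox ratios of 0.00455, 0.00598 and 0.00499 from a mean NoDox ratio of 0.285. Heph, a copper-dependent iron oxidase, had Dox ratios of 0, 0.00794 and 0. Stard8, a GTPase-activating protein of focal adhesions, had Dox ratios of 0.0104, 0.00297 and 0.00645. These genes were at or near 0 in every Dox library.

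Gabra3, Gpc3 and Igsf1, also among the 10 lowest fully silenced genes, code for proteins of the cell surface. Gabra3, a subunit of the GABA receptor, fell from NoDox ratios of 0.585, 0.618 and 0.713 to Dox ratios of 0.0138, 0.0169 and 0.0139, which is the largest fall among the fully silenced genes (z = -0.624). Gpc3, a heparan sulfate proteoglycan of the cell surface, had Dox ratios of 0.0175, 0.0149 and 0.0107 and the highest RPKM of all fully silenced genes, 62.7. Igsf1, an immunoglobulin-domain membrane protein, had Dox ratios of 0, 0.0112 and 0.0196. Low ratio and low RPKM thus did not always go together, as Gpc3 and Kis2 (60.7 RPKM, Dox ratios of 0.0200, 0.0246 and 0.0295) were expressed above the median of the table.

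Some genes lay close to the limits. Inside the limit of 0.05, the nearest were Pls3, an actin-bundling protein, with a highest Dox ratio of 0.0492, and Zfp185, an actin-associated LIM protein, also with 0.0492. Nhsl2, with 0.0506, was outside. At the other limit, Rbmx2 had a lowest Dox ratio of 0.213 and was inside. Mbnl3, a splicing regulator, with a lowest Dox ratio of 0.200, was at the limit itself. Tbc1d25, a Rab GTPase-activating protein, and the RNA helicase Ddx3x, each with a lowest Dox ratio of 0.199, were outside. Leaving out Dox replicate 3 raised the incompletely silenced genes from 8 to 19, and leaving out Dox replicate 1 raised the fully silenced genes from 36 to 56.

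Position along the chromosome went with the depth of silencing in a patchy manner. In windows of 10 Mb the median of the mean Dox ratio was highest from 0 to 10 Mb, at 0.137 over 34 genes, where 1 gene (2.94%) was fully silenced. It was lowest from 50 to 60 Mb, at 0.0475 over 28 genes, of which 9 (32.1%) were fully silenced and 0 incompletely silenced. The window from 90 to 100 Mb, next to Xist, had 0.0571 over 26 genes with 8 fully silenced (30.8%), and that from 100 to 110 Mb had 0.0624 over 26 genes with 6 (23.1%). Between these low stretches, the 58 genes from 70 to 80 Mb had a median of 0.0932 with 6 fully silenced (10.3%). The 5 genes Gpc4, Gpc3, Kis2, Ccdc160 and Phf6, which lie in a row from 52053018 to 52956961 (mm10), were all fully silenced. Another row was Tmem28, Eda and Awat2 from 99821069 to 100412587, and Pcyt1b, Pdk3 and AU015836 formed a row from 93654863 to 93975470.

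**Figure D2:**
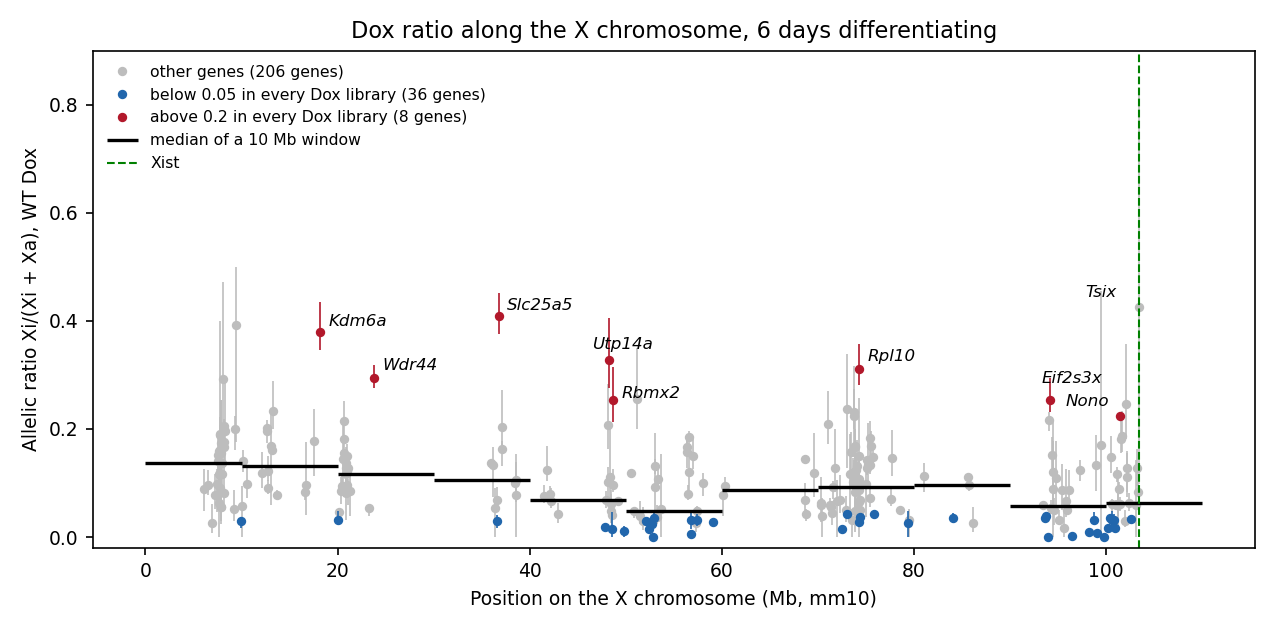
Mean ratio of the 3 WT Dox libraries (vertical axis, a fraction) of 250 genes by the position of their midpoint on the X chromosome (horizontal axis, Mb). The window medians (black lines) are lowest from 50 to 60 Mb (0.0475) and next to Xist, and highest from 0 to 10 Mb (0.137), while incompletely silenced genes are scattered.

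Across the 250 genes, the Spearman correlation of the Dox ratio with the distance of the gene's midpoint from that of Xist was 0.239, 0.205 and 0.253 in the 3 Dox libraries. Their mean was 0.232 ± 0.0249 (SD, n = 3), so genes farther from Xist tended to keep more Xi output. Genes are not independent replicates, and the points share their libraries. With the genes split into 3 groups by distance, the median Dox ratio was 0.0709 in the 83 nearest genes, 0.0684 in the middle 83 and 0.121 in the 84 farthest, from 61.6 Mb on. The difference thus lay in the farthest genes. The 3 farthest genes were Nudt11, which had a mean Dox ratio of 0.0893, Shroom4, an actin-binding protein, with 0.0969, and Dgkk, a diacylglycerol kinase, with 0.0263. Next to Xist, Chic1 had 0.0835 and 4930519F16Rik 0.128, while Tsix had 0.426, a mean of widely spread libraries. Neither the nearest nor the farthest genes were uniform.

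The neighbours of incompletely silenced genes ranged from well silenced to nearly as high. Rpl10, at 74270816 to 74273135, starts 12.9 kb beyond Emd, a nuclear envelope protein with a mean Dox ratio of 0.151, and ends 0.0820 kb before Dnase1l1, with 0.0642. Atp6ap1, a proton pump subunit within the same cluster at 74297097 to 74304721, was fully silenced at 0.0280. It started from the lowest mean NoDox ratio of the fully silenced genes, 0.231, with the smallest fall among them (z = -0.203). By residual odds Atp6ap1 was not called fully silenced. Nono ends 0.516 kb before Itgb1bp2, which had a mean Dox ratio of 0.0612, and starts 9.43 kb beyond Zmym3, with 0.0893. Eif2s3x lies 22.3 kb from Klhl15, with 0.0541, and 65.3 kb from the zinc-finger factor Zfx, with 0.216. Rpl10, Nono and Eif2s3x thus kept more Xi output than the nearest gene, while Zfx was close to Eif2s3x. Utp14a, at 48256934 to 48282449, lies 48.2 kb from Zdhhc9, with a mean Dox ratio of 0.207, and 58.9 kb from Bcorl1, a transcriptional corepressor, with 0.111. Rbmx2, at 48695004 to 48710719, lies 32.7 kb from Slc25a14, with 0.0968. Slc25a5, at 36795652 to 36798806, lies 150 kb from Akap17b, with 0.0692, and 293 kb from Upf3b, a factor of RNA decay, with 0.162. Kdm6a (18162667 to 18279358) and Wdr44 (23693117 to 23806001) stood apart, with the nearest measured genes, Fundc1 and Klhl13, 590 kb and 408 kb away.

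Genes with higher expression kept more Xi output. The Spearman correlation of the Dox ratio with RPKM was 0.279, 0.369 and 0.387 in the Dox libraries, with a mean of 0.345 ± 0.0578 (SD, n = 3, across 250 genes). With the genes split into 3 groups by RPKM, the median Dox ratio was 0.0624 in the low, 0.0936 in the middle and 0.124 in the high group. The low group of 83 genes held 18 fully and 0 incompletely silenced genes, and the high group of 84 held 5 and 5. Fully silenced genes had a median RPKM of 9.59 and incompletely silenced genes 72.6, against 17.3 over all 250. Rps4x, a ribosomal protein with the highest RPKM of all (553), had Dox ratios of 0.155, 0.0946 and 0.0837, close to the median gene. Flna, an actin crosslinker with 291 RPKM, had 0.0874, 0.0354 and 0.0307. Slc25a5, with 284 RPKM, went the other way and was incompletely silenced, with a mean Dox ratio of 0.409. High RPKM was thus found with and without incomplete silencing. At the low end, Srpx with 0.0466 RPKM had Dox ratios of 0.0769, 0 and 0.0952. Mir669m-2 and Il1rapl1 were listed with an RPKM of 0 although both had allelic ratios. The depth behind a ratio is unknown, and its part in this relation was not tested. A Dox ratio of 0 in at least 1 library was found in 16 genes of the low, 4 of the middle and 1 of the high RPKM group, and the median SD over Dox libraries was 0.0276, 0.0234 and 0.0243.

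**Figure D3:**
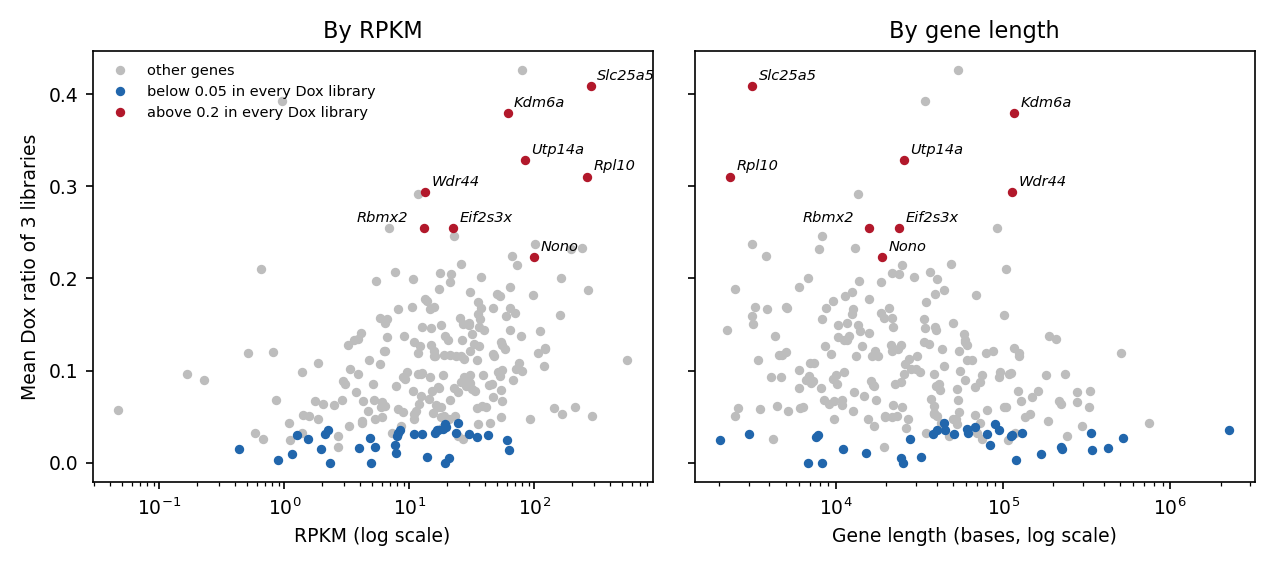
Mean ratio of the 3 WT Dox libraries (vertical axis, a fraction) of 250 genes against RPKM (left) and against gene length in bases (right), both on log axes. Incompletely silenced genes have a median of 72.6 RPKM and fully silenced genes 9.59, while fully silenced genes spread over the whole range of length.

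Longer genes were silenced more. The Spearman correlation of the Dox ratio with the deposited gene length was -0.289, -0.228 and -0.192, with a mean of -0.236 ± 0.0490 (SD, n = 3, across 250 genes). The median Dox ratio was 0.116 in the shortest of 3 groups of genes, 0.105 in the middle and 0.0667 in the longest. The longest group, from 50416 bases on, held 20 of the 36 fully silenced genes, and each other group held 8. From the shortest to the longest group, the median SD over Dox libraries was 0.0368, 0.0249 and 0.0156. A Dox ratio of 0 in at least 1 library was found in 11, 7 and 3 genes. Full silencing needs every Dox library below 0.05, and the part of this spread in the call was not tested. The median length was 61038 bases for fully silenced genes and 21444 for incompletely silenced genes, against 26724 over all 250. Dmd, which codes for dystrophin and is the longest gene of the table at 2256182 bases, was fully silenced with Dox ratios of 0.0252, 0.0390 and 0.0440. Tenm1, a neuronal adhesion protein of 742393 bases, missed the limit with 0.0385, 0.0636 and 0.0263. Kis2, the shortest gene at 2032 bases, was fully silenced too, while Rpl10 at 2321 bases was incompletely silenced and Ndufb11, a respiratory chain subunit of 2240 bases, had a mean Dox ratio of 0.144. Short genes were therefore found at every depth of silencing. Length and RPKM were themselves related across genes (Spearman -0.231), and with RPKM and distance held fixed by partial rank correlation the value for length was -0.155. For RPKM it was 0.342 and for distance 0.275.

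The known escape genes formed the group with the highest Dox ratios among 12 lists, which were chosen with earlier results of these data known. Of 13 listed genes 7 were measured, and the 6 besides Xist had a median Dox ratio of 0.244, against 0.0938 over the 250 genes. Kdm6a, Utp14a and Eif2s3x were incompletely silenced, and Ddx3x, with Dox ratios of 0.288, 0.211 and 0.199, came close. 1810030O07Rik had 0.202, 0.197 and 0.189. Shroom4 had 0.124, 0.0883 and 0.0787, which is near the median gene. All 6 were silenced by limma, as were 97.7% of all genes, and 3 of the 6 were incompletely silenced, against 3.2% of the 250.

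Genes for RNA processing came next. Their 19 measured members had a median Dox ratio of 0.156, with 0 fully and 3 incompletely silenced (Nono, Rbmx2 and Utp14a), against 14.4% fully and 3.2% incompletely silenced over the 250 genes. Mbnl3 had Dox ratios of 0.214, 0.200 and 0.350. At the other end of this list, the splicing factor Rbmx had 0.0452, 0.0574 and 0.0394 at 91.9 RPKM, and Las1l, which takes part in ribosome biogenesis, had 0.0542, 0.0556 and 0.0405. The list of translation, which also holds the mitochondrial proteins Timm17b and Fundc2, had 6 measured genes with a median of 0.134, of which 0 were fully silenced (14.4% of the 250) and 2, Rpl10 and Eif2s3x, incompletely silenced (3.2% of the 250). The lowest of these were Fundc2, of the outer mitochondrial membrane, with a mean of 0.0723, and Mcts1, a translation re-initiation factor, with 0.0769.

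Chromatin and transcription regulators, 33 measured genes, had a median Dox ratio of 0.121 with 1 fully silenced (Phf6, a chromatin-binding zinc-finger protein) and 2 incompletely silenced (Kdm6a and Nono), where the 250 genes had 0.0938, 14.4% and 3.2%. Suv39h1, a histone methyltransferase of heterochromatin, had Dox ratios of 0.472, 0.209 and 0.195, so that its mean of 0.292 rested on replicate 1. The zinc-finger gene Zfp280c had a mean of 0.0416. Cell cycle and repair genes, 14 measured, had a median of 0.130. Among them Pin4, a prolyl isomerase, had Dox ratios of 0.357, 0.200 and 0.182, Uba1, the ubiquitin-activating enzyme, had a mean of 0.215, and Fam122b had a mean of 0.0376. The list of protein turnover also holds the proton pump genes Atp6ap1 and Atp6ap2 and the actin-associated Zfp185. Its 13 measured genes had a median of 0.0843. Uba1 and Atp6ap2, a proton pump accessory protein with a mean of 0.201, were its highest, and the deubiquitinase Usp26, with 0.0295, and Atp6ap1 its lowest.

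Metabolic genes, 29 measured, had a median of 0.0956 and 28 silenced by limma (97.7% over all genes), the exception being Slc25a5. Idh3g, a subunit of the citric acid cycle enzyme isocitrate dehydrogenase, had Dox ratios of 0.274, 0.223 and 0.199. Phka1, which regulates glycogen breakdown, and Pdk3, a kinase that restrains pyruvate oxidation, were fully silenced with means of 0.0325 and 0.0388. Genes of the cytoskeleton and membrane traffic had a median of 0.0984 over 28 genes, 5 fully silenced (14.4% of the 250) and 1, Wdr44, incompletely silenced (3.2% of the 250). Ssr4, of the protein translocation pore, was the next highest at 0.225 and varied from 0.148 to 0.316 between Dox libraries. Stard8 and Rab33a, a Golgi GTPase, were the lowest.

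Genes of signalling and of specialised cells had lower Dox ratios than the 250 genes, whose median was 0.0938 with 14.4% fully and 3.2% incompletely silenced. By z the order was different, with medians of -0.410 in signalling, -0.420 in neuronal, -0.388 in stem cell and -0.450 in fibroblast genes, against -0.408 over the 250 genes and -0.428 in metabolic genes. The 27 signalling genes had a median Dox ratio of 0.0777 with 8 fully silenced, among them Gpc3, Rab33a and Fgf13, and 0 incompletely silenced. Tbc1d25 with 0.206 and the kinase Cdk16 with 0.181 were the highest. The 19 genes of the neuronal list, which also holds genes not specific to neurons, such as Heph and Stard8, had the lowest median Dox ratio of the 12 lists, 0.0479, and 7 of them were fully silenced, among them Tmem28, Heph, Stard8, Gabra3, Fgf13 and Dmd. Only Mamld1, a transcriptional coactivator, with 0.210, and Zdhhc9, a palmitoyltransferase, with 0.207, exceeded 0.2 in their mean. The median RPKM of this list was also low, 4.86, and the lists were chosen with earlier results of these data known. The 7 stem cell genes had a median of 0.0596. Zfx with 0.216 and Tfe3, a lysosomal and pluripotency-related factor, with 0.161 were their highest, while Nr0b1 (Dox ratios of 0.0127, 0.00893 and 0.0556) and the fully silenced Gpc4, with 0.0292, were the lowest. The 9 genes abundant in fibroblasts had a median of 0.0574, with 2 fully silenced (Gpc3 and Fhl1) and a highest mean of 0.160 in Plp2. Timp1, next in order, had Dox ratios of 0.167, 0.0741 and 0.111. Any RNA from feeder cells would enter these ratios, and its part was not tested.

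A few genes did not pass limma. Besides Slc25a5 they were Cybb, Frmd7, C330007P06Rik, Tsix and Xist. Frmd7 was at or near 0 in every library (0.00806, 0 and 0.0167 in NoDox; 0, 0 and 0.0189 in Dox), and C330007P06Rik was at 1 in all 3 NoDox libraries. In line C7H8, not labelled as differentiating, the NoDox ratios were 1 and 0.994 for Frmd7 and 0 and 0 for C330007P06Rik. Each gene's reads were thus assigned to the same strain in both lines. Their z of -0.00195 and -0.00128 therefore carries no information on silencing. Cybb, a subunit of the phagocyte oxidase with 0.963 RPKM, had NoDox ratios of 0.455, 0.643 and 0.560 and Dox ratios of 0.500, 0.500 and 0.176 (z = -0.160, limma adjusted p = 0.12). Only Dox replicate 3 was low. Without replicate 1, the adjusted p for Cybb passed the threshold.

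Tsix, the antisense partner of Xist, varied most of all genes among the Dox libraries. Its ratios were 0.538, 0.491 and 0.504 in NoDox and 0.0987, 0.353 and 0.826 in Dox, an SD of 0.369. The Dox libraries thus ran from strong loss to strong gain of the 129S share, and the z of -0.0852 (limma adjusted p = 0.57) describes none of them. Tsix overlaps Xist by 22861 bases on the opposite strand, and the part of Xist reads assigned to the wrong strand was not tested. The other genes with a large SD were Il1rapl1, a synaptic adhesion protein, Pja1, a ubiquitin ligase, Efhc2 and Cybb. Pja1 had Dox ratios of 0.455, 0.0541 and 0, Il1rapl1 0.541, 0.0824 and 0.0569, and Efhc2 0.496, 0.227 and 0.125. In all 3 of these the high value was that of replicate 1. Without replicate 3, Pja1 no longer passed limma.

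Of the 258 genes, 8 had a mean NoDox ratio outside 0.2 to 0.8 and were left out of the calls of full and incomplete silencing. They were Xist, Frmd7, C330007P06Rik, Il1rapl1, Efhc2, Mir669m-2, Mageb16 and Dynlt3. Dynlt3, a dynein light chain, fell from a mean of 0.852 to 0.745 (z = -0.107, limma adjusted p = 0.00042, lower in 3 of 3 Dox libraries). In C7H8, without Dox and not labelled as differentiating, its ratios were 0.0767 and 0.0824, again favouring the 129S allele. Dynlt3 and Mageb16, named here after their values were seen, therefore started from a strongly unequal NoDox ratio, and their Dox ratios cannot be read against the limits of 0.05 and 0.2.

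Promoters of the silenced genes were described by their sequence. Of the 258 genes 214 matched an entry of RefSeq (GRCm38.p6) with 250 bases before and 50 bases after the gene's start, 30 of them fully silenced and 8 incompletely silenced. The RefSeq start was within 1 kb of the deposited start in 209 genes, and 3 of the 30 fully silenced genes (Fhl1, Dlg3 and Gm8787, named after their values were seen) were beyond it. GC content did not separate them, with medians of 58.7% in fully and 56.3% in incompletely silenced genes, against 58.7% over 207 of the 250 genes. The observed over expected number of CpG dinucleotides did differ in its median, 0.504 against 0.827, with 0.669 over the 207 genes. Across these genes its Spearman correlation with the Dox ratio was 0.350, 0.257 and 0.255 in the Dox libraries, and with RPKM 0.236. Each incompletely silenced gene had a ratio of at least 0.669. With only promoters within 1 kb, chosen after seeing the data, the median was 0.516 in 27 fully silenced genes and 0.827 in the 8 incompletely silenced genes.

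Letters of 6 known motifs were searched on both strands, and matches of different motifs were counted separately, also where they overlapped. The GC box GGGCGG was found in 7 of 8 incompletely silenced genes and 22 of 30 fully silenced genes, against 105 of the 169 genes between the classes (62.1%) and 35.7% of all 32851 promoters of the table. CCATNTT, the core read by YY1, was found in 3 of 8 and 6 of 30, against 33 of 169 and 16.1% of all promoters. In the same order, the ETS motif CCGGAAGT was found in 2 of 8, 0 of 30 and 5 of 169 (3.89% of all promoters), and the E-box CACGTG in 1 of 8, 2 of 30 and 21 of 169 (7.15%). TCGCGAGA of ZBTB33 was found in 1 of 8, 1 of 30 and 6 of 169 (0.995%), and TATAAA in 1 of 8, 4 of 30 and 12 of 169 (13.6%). With only promoters within 1 kb, the GC box was found in 21 and the E-box in 1 of 27 fully silenced genes. A match describes the letters only. The promoters shown are those of the 2 incompletely silenced genes with the highest mean Dox ratio, Slc25a5 (chrX:36795347-36795646) and Kdm6a (chrX:18162325-18162624), and of the first fully silenced genes in order of their highest Dox ratio, Ccdc160 (chrX:52790950-52791249) and Tmem28 (chrX:99819914-99820213). All 4 are on the plus strand of GRCm38.p6, written 5′ to 3′, with motif matches in capitals. Their CpG values were 0.669, 0.708, 0.521 and 0.636, and each held 1 GC box. Kdm6a also held an E-box and Tmem28 a YY1 core, and the RefSeq start of Tmem28 lies 906 bases from the deposited start.
Slc25a5: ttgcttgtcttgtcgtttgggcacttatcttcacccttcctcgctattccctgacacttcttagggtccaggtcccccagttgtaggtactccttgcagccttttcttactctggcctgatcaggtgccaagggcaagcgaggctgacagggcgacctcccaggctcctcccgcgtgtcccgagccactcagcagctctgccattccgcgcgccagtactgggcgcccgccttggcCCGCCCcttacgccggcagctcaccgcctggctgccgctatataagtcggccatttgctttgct
Kdm6a: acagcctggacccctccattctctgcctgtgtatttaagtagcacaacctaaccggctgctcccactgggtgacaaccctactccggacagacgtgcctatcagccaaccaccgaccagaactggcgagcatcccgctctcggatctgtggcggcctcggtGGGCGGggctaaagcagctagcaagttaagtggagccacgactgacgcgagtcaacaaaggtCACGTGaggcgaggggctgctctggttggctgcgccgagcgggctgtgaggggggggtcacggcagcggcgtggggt
Ccdc160: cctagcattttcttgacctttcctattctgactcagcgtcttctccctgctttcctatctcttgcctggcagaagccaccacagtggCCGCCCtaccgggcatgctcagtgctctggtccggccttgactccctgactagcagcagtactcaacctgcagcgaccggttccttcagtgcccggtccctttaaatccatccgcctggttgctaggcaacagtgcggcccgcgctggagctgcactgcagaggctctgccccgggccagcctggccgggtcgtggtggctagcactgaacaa
Tmem28: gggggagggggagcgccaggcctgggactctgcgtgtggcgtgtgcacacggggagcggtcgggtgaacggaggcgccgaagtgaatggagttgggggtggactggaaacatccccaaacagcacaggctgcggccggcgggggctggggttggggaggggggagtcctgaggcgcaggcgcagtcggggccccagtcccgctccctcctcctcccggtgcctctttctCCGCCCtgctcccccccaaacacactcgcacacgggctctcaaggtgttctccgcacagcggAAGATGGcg

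The same genes were low or high without differentiation. In the undifferentiated WT pair, which has no replicate, the Dox library had a median ratio of 0.0216 over the 36 fully silenced genes, 0.272 over the 8 incompletely silenced genes and 0.0862 over all 250. Of the fully silenced genes 33 were below 0.05 there, against 77 of all 250, and 7 of the 8 incompletely silenced genes were above 0.2, against 28 of all 250. The exception was Rbmx2, with 0.188. Kdm6a had 0.385 and Utp14a 0.341, close to their means of 0.379 and 0.328 in differentiating cells, while Eif2s3x had 0.326, above its mean of 0.254 there. Across 250 genes the Spearman correlation of the undifferentiated Dox ratio with the differentiating Dox libraries was 0.773, 0.859 and 0.830. Tsix had a ratio of 0.150 in the undifferentiated Dox library.

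The Xist deletions show where WT silencing differs. In XistDelA cells limma found 248 of 258 genes (96.1%) silenced less than in WT, and their Dox ratios over the 250 genes had a median of 0.514. That includes all 36 fully silenced genes, with a median Dox ratio of 0.463, and 7 of the 8 incompletely silenced genes, all but Slc25a5. The median z of the 36 in XistDelA was -0.0161. Among the lowest fully silenced genes, Heph had the most negative z of the 36 in XistDelA, from a mean of 0.382 to 0.205. Tmem28 went from 0.475 to 0.321 and Igsf1 from 0.416 to 0.272. These genes were chosen after their values were seen, and their fall within XistDelA was not tested. The difference in silencing from WT passed limma in each.

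In XistDelPID cells 182 of 258 genes (70.5%) were silenced less than in WT, 0 were silenced more, also 0 at an unadjusted p under 0.05, and the median Dox ratio over the 250 genes was 0.248. Of the fully silenced genes 21 of 36 (58.3%) were among the 182, and of the incompletely silenced genes 7 of 8 (87.5%), against 178 of all 250 (71.2%). Fully silenced genes had a median Dox ratio of 0.112 in XistDelPID. Of these 36 genes, 4 were below 0.05 in their mean there, against 5 of all 250. Stard8, with 0.0442 ± 0.00175 (SD, n = 3) in XistDelPID and 0.00659 ± 0.00370 (SD, n = 3) in WT, is one that limma did not find different in silencing (adjusted p = 0.88). Phf6 was different, with 0.224 ± 0.00901 (SD, n = 3) against 0.0361 ± 0.0106 (SD, n = 3). Its z was weaker by 0.166 (limma adjusted p = 1e-05). These calls compare z on the ratio scale, where genes near 0 can differ little. On the logit scale 224 of the 258 genes were silenced less than in WT, and calls for single genes there are not given.

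Several incompletely silenced genes had Dox ratios near 0.5 in XistDelPID. The median Dox ratio of the 8 was 0.466, and their median z there was -0.153. A ratio of 0.5 is not their unsilenced state, since their median WT NoDox ratio was 0.566. Their median difference in z from WT was 0.130, against 0.145 over all 250 genes. Kdm6a had 0.500 ± 0.0152 (SD, n = 3) with Dox and a mean of 0.536 without. Wdr44 had 0.525 with and 0.469 without, and Utp14a had 0.525 with and 0.664 without. Slc25a5 went the other way, with 0.295 with Dox and 0.472 without, against a WT Dox mean of 0.409. Its difference in z from WT did not pass limma (adjusted p = 0.20). Nono was nearest to WT, with 0.276 ± 0.0229 (SD, n = 3) against 0.223 ± 0.00270 (SD, n = 3) in WT. Its difference in z of 0.0503 passed limma (adjusted p = 0.032). So the incompletely silenced genes did not keep their WT order in the deletion.

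**Figure D4:**
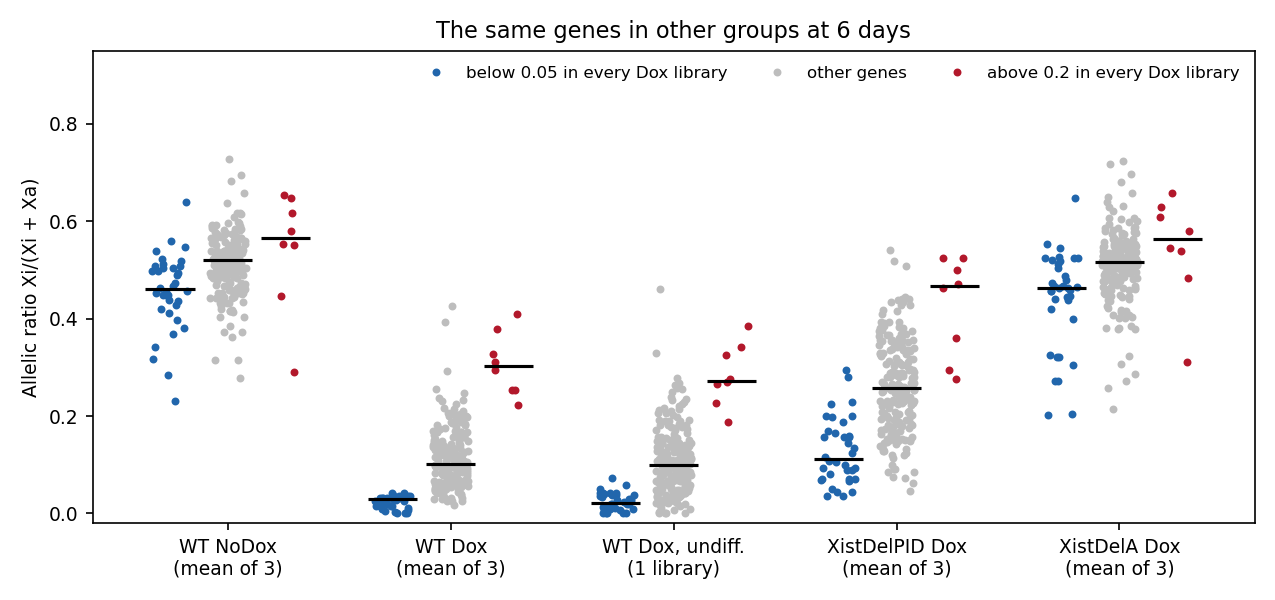
Allelic ratio (vertical axis, a fraction) of the 36 fully silenced genes, the 206 genes between and the 8 incompletely silenced genes, each gene a point, in WT NoDox, WT Dox, undifferentiated WT Dox, XistDelPID Dox and XistDelA Dox (horizontal axis). In XistDelPID the median is 0.112 for the fully and 0.466 for the incompletely silenced genes, and in XistDelA 0.463 and 0.563.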

How the data were processed

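The authors removed rRNA reads with bowtie2 2.3.2, then used STAR 2.4.2a on mm10 with strain positions masked, keeping unique end-to-end alignments. SNPsplit assigned alleles, and featureCounts made stranded gene counts. The deposited fraction is the ratio Xi/(Xi + Xa) for genes with 10 or more allele-informative reads. The deposited RPKM is the authors' measure of expression, its library not named. Deposited starts count from 0 and are printed here from 1. The deposited length exceeded the end minus the start by more than 1 base in 14 genes.

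The gene tests used limma 3.58.1 under R 4.3.3 (a linear model of the ratio in 24 libraries with eBayes, 1 coefficient per line, culture and induction group, Benjamini-Hochberg over 258 genes, adjusted p under 0.05), for Dox minus NoDox in WT and for its difference between lines. The step was tested on simulated data, whose outcome is not given here. Library medians were compared by exact permutation. Python 3.11.15, numpy 2.4.6, pandas 2.3.3 and scipy 1.17.1 were used. The depth is unknown, so precision rests on the spread between libraries.

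Named genes were every incompletely silenced gene, the 10 fully silenced genes with the lowest highest Dox ratio, genes with z above -0.05 or not called, the 5 with the largest SD over Dox libraries, the 2 lowest and 2 highest of each of 12 lists and every measured escape gene, the 3 extremes by length, RPKM and distance, and the 2 nearest on each side of a limit. Not every gene this rule selects is printed. Members and lists were chosen with earlier results of these data known. Alternatives left out each WT library or replicate number, or used the logit, only genes with NoDox ratios from 0.2 to 0.8, the replicate as a block, robust eBayes, fewer libraries, and other limits and measures. The C7H8 Dox libraries (2 columns of ratios) were not used.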

Additional observations from a re-analysis of the deposited data

Results flagged for a closer look

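The effect of Dox was compared between lines by the interaction term in limma. In 248 genes it was weaker in XistDelA than in WT, and in 182 genes it was weaker in XistDelPID than in WT, each at an adjusted p under 0.05. Both counts drew attention because the tested difference between lines passed the threshold. Their causes were not tested. Among the libraries compared the labels name 1 line of each genotype, so the deletion and other line differences cannot be told apart.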

How the results depend on the processing

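The number of silenced genes in WT ranged from 247 to 253 over the alternatives, that of genes silenced less in XistDelA from 243 to 251, and that of genes silenced less in XistDelPID from 164 to 224 (193 with the replicate as a block). The difference of median ratios ranged from -0.430 to -0.397 on the ratio scale and was negative on the logit scale (-2.38). With 2 libraries against 2 no permutation p below 0.333 is possible.

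The calls of full and incomplete silencing moved with their limits. Without a replicate, fully silenced genes numbered 36 to 56 and incompletely silenced genes 8 to 19, and the 36 and 8 were included each time. A limit of 0.1 gave 94 fully and 76 incompletely silenced genes, and the mean Dox ratio gave 59 and 25. By residual odds 33 genes were fully silenced, 27 of them shared with the 36, and 17 were incompletely silenced, 7 of them shared with the 8. Fewer required libraries or a wider limit can only add genes. Residual odds also take in the NoDox ratio, which the limits on the Dox ratio do not. By them Atp6ap1 left the fully silenced genes and Rbmx2 the incompletely silenced genes. The part of the NoDox ratio in these changes was not tested.

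With z in place of the Dox ratio the correlation was 0.196 with distance and 0.271 with RPKM. By partial rank correlation it was 0.275 with distance and -0.155 with length. With the span in place of the deposited length, chosen after seeing the data, it was -0.221. The causes were not tested.

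For 75 named genes, 584 alternative values of z kept direction and call. C330007P06Rik went to 0 on the logit scale and without replicate 1, and to -0.00192 without replicate 2. Frmd7 went to 0.0421 on the logit scale, 0.00110 without replicate 1 and -0.00403 without replicate 3. Tsix went to 0.0916 without replicate 1 and to -0.289 without replicate 3, where limma called it silenced. Cybb became silenced without replicate 1. Mamld1 was no longer called on the logit scale, nor Pja1 without replicate 3 or with only the differentiating libraries. The depth of each gene is unknown, so a ratio of 0 sets no upper limit on Xi output.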

Other observations

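Of the 258 genes, 7 pairs overlapped on opposite strands and 0 on the same strand. Ikbkg, the regulatory subunit of the kinase that activates NF-kB, and G6pdx, the entry enzyme of the pentose phosphate pathway, share 19676 bases and had mean WT Dox ratios of 0.0366 and 0.05. Syn1, a synaptic vesicle protein, and Timp1 share 4572 bases and had 0.128 and 0.117. Prickle3 and Plp2 share 71 bases and had 0.0624 and 0.160. These pairs were chosen after their values were seen.

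In line C7H8, where the counted fraction is that of the Cast allele, the NoDox libraries had Xist ratios of 0.792 and 0.790. Tsix had 0.413 and 0.419 in the same libraries.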
